A study of Mus musculus with 2 samples.

Results

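The 3 hairpin genes Mir106b, Mir93 and Mir25 lie in 1 intron of Mcm7 and give rise to 6 mature arms, mmu-miR-106b-5p, mmu-miR-106b-3p, mmu-miR-93-5p, mmu-miR-93-3p, mmu-miR-25-5p and mmu-miR-25-3p. The members were taken by name from the tables of serum extracellular vesicle miRNAs (EV-miRNAs), and all 6 were found among 1847 listed miRNAs. Serum EVs are membrane particles that cells shed into the blood. Of 2 libraries, 1 was from male iFIRKO mice (Adipoq-CreERT2, Insr flox/flox). In these mice a Cre recombinase driven by the adiponectin promoter removes the insulin receptor from adipocytes once tamoxifen is given. The other library was from male control mice, labelled WT, which the methods describe as carrying the floxed alleles without Cre. Mice of both groups were injected with tamoxifen at 100 mg/kg on 5 days from 7 weeks of age, and serum was taken on day 3 after the last dose. Each group had 1 library made from the pooled serum of several mice, so that no test between genotypes exists, and every interval below covers counting error only. No miRNA in the tables reports deletion of the insulin receptor or marks a vesicle, so neither label could be checked from the tables themselves. The study's text describes most serum EV-miRNAs as decreased in iFIRKO mice and those it followed up by quantitative RT-PCR, miR-451a, miR-144-3p and miR-486a-3p among them, as increased. The deposited labels give the opposite direction for most miRNAs on the deposited scale and for these named miRNAs. Which library is which is therefore in doubt. Directions below follow the labels as deposited, and with exchanged labels every ratio would be inverted.

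A miRNA hairpin is cut into a 5p and a 3p arm, and usually 1 arm, the guide strand, is kept by Argonaute and pairs with target mRNAs through its seed, while the other is mostly discarded. Mcm7 encodes a subunit of the replicative DNA helicase, and the 3 hairpins are transcribed with it. They are relatives of the miR-17-92 cluster, and the guides miR-106b-5p and miR-93-5p are known repressors of the cell cycle inhibitor p21 (Cdkn1a), whereas miR-25-3p is known to repress the pro-apoptotic protein Bim (Bcl2l11). The arms of the cluster are known from red blood cells and platelets as well as from dividing tissues.

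The mature sequences are shown because the seed splits the cluster between a pair of target families. Sequences are 5′ to 3′ from RefSeq (GRCm38.p6), and the capitals mark the seed, bases 2 to 8.
mmu-miR-106b-5p: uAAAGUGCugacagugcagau
mmu-miR-93-5p: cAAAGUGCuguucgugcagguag
mmu-miR-25-3p: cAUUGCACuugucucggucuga
mmu-miR-106b-3p: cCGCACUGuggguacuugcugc
mmu-miR-93-3p: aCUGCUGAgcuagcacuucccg
mmu-miR-25-5p: aGGCGGAGacuugggcaauugc

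The guides miR-106b-5p and miR-93-5p had the same seed, AAAGUGC, and after base 1 they were identical over 9 bases. Over their whole length they differed by 7 edits. The guide miR-25-3p had the seed AUUGCAC. The seeds of miR-106b-3p, miR-93-3p and miR-25-5p were shared with no other listed miRNA that had a RefSeq sequence. The arms were 21 to 23 bases long.

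The hairpins lie on the minus strand of mouse chromosome 5 (GRCm38, GENCODE M21). Mir106b spans 138165737 to 138165818, Mir93 spans 138165523 to 138165610, and Mir25 spans 138165321 to 138165404. Mcm7 spans 138164583 to 138172422. In its transcript of 15 exons all 3 hairpins fell in intron 13, which is 748 bases long, in the order Mir106b, Mir93, Mir25. The spacers were 126 and 118 bases, and the cluster spanned 498 bases. Mir93 and Mir25, but not Mir106b, also fell in an exon of a shorter Mcm7 transcript annotated as a retained intron.

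**Figure D1:**
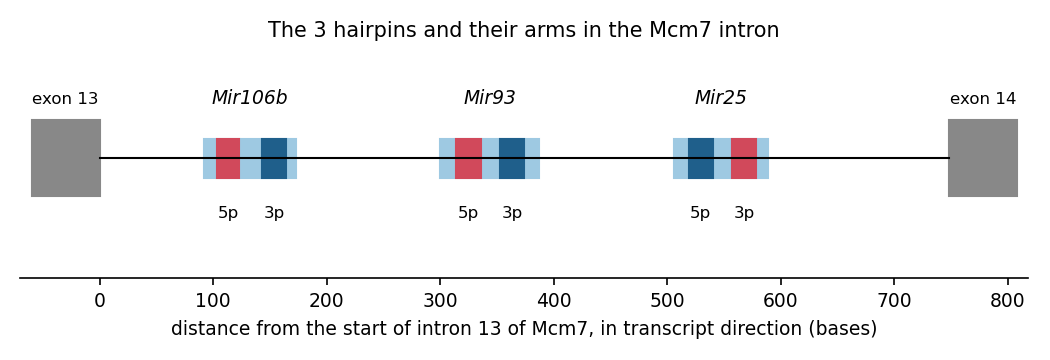
The x axis gives the distance in bases from the start of intron 13 of Mcm7 in the direction of transcription. Light blue boxes are the hairpins, red boxes the 3 guide strands, dark blue boxes the other arms and grey boxes the ends of exons 13 and 14, and the 3 hairpins sit within 498 bases of the 748-base intron.

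The first question was how much of each arm the serum EVs held. Levels are counts per 1000000 counts of the library (CPM), at a depth of 3817902 counts in the control-labelled library and 2233498 in the iFIRKO-labelled library. Counts under 10 are not resolved in the tables, and all 6 arms were above that floor in both libraries.

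In the control-labelled library miR-93-5p had 62704 counts (16424 CPM), and in the iFIRKO-labelled library it had 27414 counts (12274 CPM). For miR-25-3p there were 61907 counts (16215 CPM) and 25532 counts (11431 CPM), respectively. These guides were the dominant products of the cluster, ranking 13 and 14 of all miRNAs in the control-labelled library and 17 and 19 in the iFIRKO-labelled library. Together they made up 97.0% of the counts of the 6 arms in the control-labelled library (95% Wilson interval 96.9 to 97.1) and 96.4% in the iFIRKO-labelled library (96.3 to 96.6).

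The guide of the remaining hairpin, miR-106b-5p, had 734 counts (192 CPM) and 378 counts (169 CPM). It was thus 85.4-fold below miR-93-5p in the control-labelled library and 72.5-fold below it in the iFIRKO-labelled library, although both come from the same intron. Its partner miR-106b-3p, usually regarded as the passenger, had 2542 counts (666 CPM) and 1034 counts (463 CPM). The 3p arm of Mir106b was therefore the more abundant, by 3.46-fold in the control-labelled library and by 2.74-fold in the iFIRKO-labelled library.

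The other passenger arms were rare. miR-93-3p had 430 counts (113 CPM) in the control-labelled library and 428 counts (192 CPM) in the iFIRKO-labelled library. miR-25-5p had 141 counts (36.9 CPM) and 127 counts (56.9 CPM). The counts of these arms were nearly equal in the libraries, while the depth of the control-labelled library was 1.71-fold higher.

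**Figure D2:**
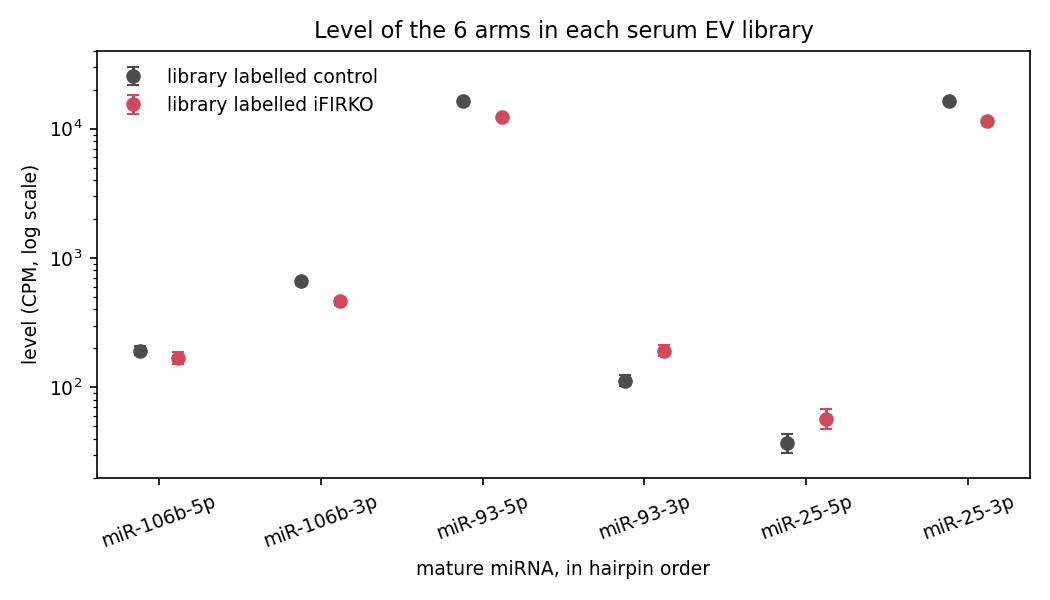
The y axis gives the level of each arm in CPM on a log scale, with 1 point for each library and bars for the exact Poisson 95% interval of its count, which are often smaller than the point. miR-93-5p and miR-25-3p lie between 11431 and 16424 CPM, and the other 4 arms lie between 36.9 and 666 CPM.

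In descending order the control-labelled library held miR-93-5p, miR-25-3p, miR-106b-3p, miR-106b-5p, miR-93-3p and miR-25-5p. Each neighbour pair there differed by more than counting error, the closest pair being miR-93-5p and miR-25-3p with 50.3% of their joint counts in miR-93-5p (95% Wilson interval 50.04 to 50.6). In the iFIRKO-labelled library miR-93-3p stood above miR-106b-5p. These neighbours were not distinguishable there, since miR-93-3p held 53.1% of their joint counts with an interval of 49.65 to 56.5. The other neighbour pairs of that library differed by more than counting error.

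The second question was how the arms differed between the libraries, given as the ratio of CPM in the iFIRKO-labelled library to CPM in the control-labelled library. The 6 arms together made up 3.36% of the control-labelled library (95% Wilson interval 3.35 to 3.38) and 2.46% of the iFIRKO-labelled library (2.44 to 2.48), a ratio of 0.731 (95% interval 0.723 to 0.738). The ratio was 0.747 for miR-93-5p (0.737 to 0.758) and 0.705 for miR-25-3p (0.695 to 0.715). miR-106b-3p had a ratio of 0.695 (0.646 to 0.748). miR-106b-5p had a ratio of 0.880 (0.776 to 0.998), with an interval that ends just below 1. All 4 of these arms were thus lower in the iFIRKO-labelled library on the deposited scale. The other scalings tried multiplied every ratio by 0.553 to 1.002, so none could turn a ratio clearly below 1. That the 4 arms stayed lower under them is therefore no separate check. With exchanged labels these 4 arms would be higher in iFIRKO on the deposited scale, by 1.14-fold (miR-106b-5p) to 1.44-fold (miR-106b-3p).

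The remaining arms were higher in the iFIRKO-labelled library on the deposited scale. miR-93-3p had a ratio of 1.70 (95% interval 1.48 to 1.95) and miR-25-5p a ratio of 1.54 (1.20 to 1.97). With TMM scaling, which divides every ratio by 1.81, both turned below 1, to 0.941 and 0.852, so their direction depended on the scaling.

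By label, and at the 1.5-fold threshold of the study, 2 of the 6 arms were higher, miR-93-3p and miR-25-5p, where 66.3% of all 1847 miRNAs were higher. None of the 6 was over 1.5-fold lower, where 3.03% of all miRNAs were. These counts turned with the scaling. TMM scaling left 0 higher and 4 lower, and scaling to the reference miR-148a-3p or to the median of ratios left 0 higher and 3 lower. Over all 1847 miRNAs these scalings gave 1001 higher and 102 lower with miR-148a-3p, and 957 and 113 with the median of ratios. The log2 ratio of every miRNA was lowered by 0.22 with miR-148a-3p, by 0.27 with the median of ratios and by 0.85 with TMM. TMM scaling moved the same split from 1225 higher and 56 lower on the deposited scale to 388 and 360, and the share of higher ones among them from 95.6% to 51.9%. At a ratio below 1, the 4 lower arms compare with 11.9% of all miRNAs on the deposited scale.

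**Figure D3:**
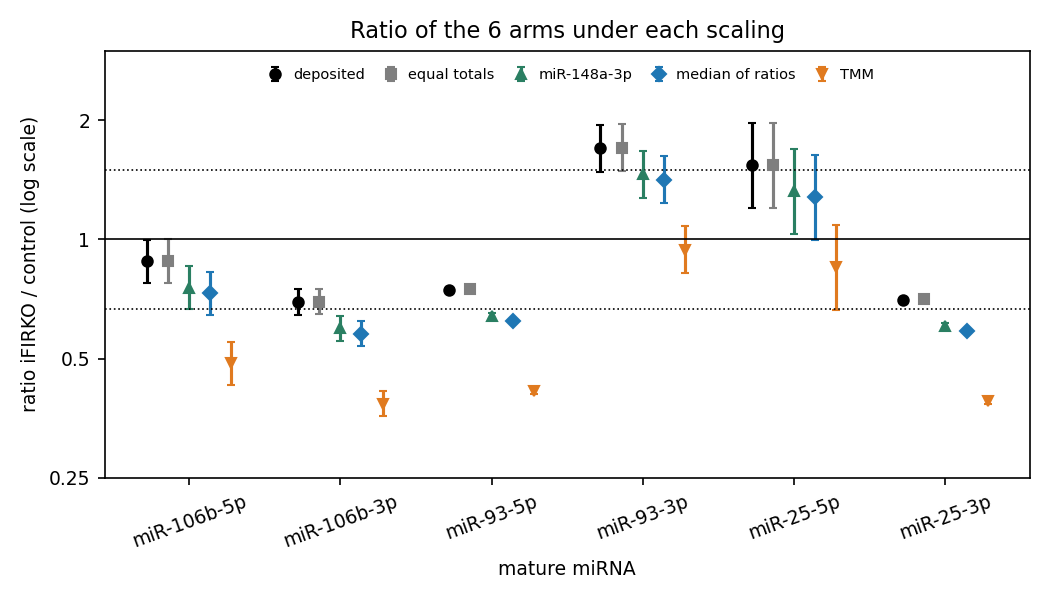
The y axis gives the ratio of the iFIRKO-labelled library to the control-labelled library on a log scale for each arm, with 1 symbol for each of 5 scalings, bars for the 95% counting interval, a solid line at 1 and dotted lines at 1.5-fold. The 4 arms miR-106b-5p, miR-106b-3p, miR-93-5p and miR-25-3p lie below 1 under all 5 scalings, whereas miR-93-3p and miR-25-5p lie above 1 except with TMM scaling (0.941 and 0.852). No scaling multiplied a ratio by more than 1.002.

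The ratios of all EV-miRNAs varied with abundance, so each arm was set beside miRNAs of its own class. Among the 118 miRNAs averaging 1000 counts or more, 59.3% were lower in the iFIRKO-labelled library, 9.32% were over 1.5-fold lower, and the median log2 ratio was -0.07 (quartiles -0.40 and 0.15). The log2 ratios of miR-93-5p (-0.42), miR-25-3p (-0.50) and miR-106b-3p (-0.52) were below the lower quartile of this class. A lower ratio was found for 27 of the 118 miRNAs in the case of miR-93-5p, for 17 in the case of miR-25-3p and for 13 in the case of miR-106b-3p.

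In the class with a mean count from 100 to under 1000, which holds 302 miRNAs, 21.9% were lower, 47% were over 1.5-fold higher, and the median log2 ratio was 0.53 (quartiles 0.07 and 0.98). The log2 ratio of miR-106b-5p (-0.18) was below the lower quartile, with 36 of the 302 below it. miR-93-3p (0.77) and miR-25-5p (0.62) were between the quartiles, with 193 and 169 below them. The higher ratios of the rare passenger arms were thus in the middle of their class.

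**Figure D4:**
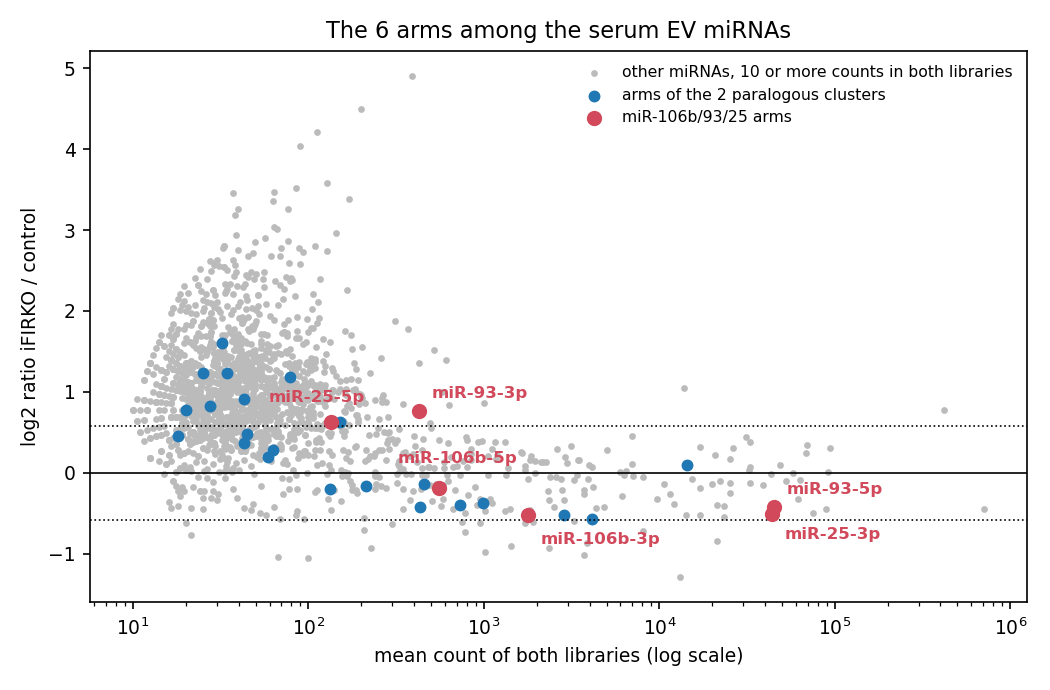
The x axis gives the mean count of both libraries on a log scale and the y axis the log2 ratio of the iFIRKO-labelled library to the control-labelled library, with the 6 arms in red, the arms of the miR-17-92 and miR-106a-363 clusters in blue, the other miRNAs with at least 10 counts in both libraries in grey and dotted lines at 1.5-fold. The abundant arms miR-93-5p, miR-25-3p and miR-106b-3p lie between -0.42 and -0.52, and the rarer miR-93-3p and miR-25-5p lie at 0.77 and 0.62.

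Ratios between arms within a library do not depend on how the library was scaled, and they were compared next. From miR-93-5p to miR-25-3p the level ratio was 1.01 in the control-labelled library and 1.07 in the iFIRKO-labelled library, a change of 1.06-fold (95% interval 1.04 to 1.08). These guides therefore kept almost equal levels, and miR-25-3p was the more reduced by a small margin. The change between miR-106b-3p and miR-25-3p had an interval that includes 1 (0.986, 0.916 to 1.06), as did those between miR-106b-3p and miR-93-5p (0.930, 0.864 to 1.002) and between miR-93-3p and miR-25-5p (1.11, 0.840 to 1.45). Of the 15 pairs among the 6 arms, the interval of the other 12 did not include 1.

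The balance between the arms of a hairpin was then followed. The level of miR-93-5p was 146-fold that of miR-93-3p in the control-labelled library and 64.1-fold in the iFIRKO-labelled library, which was 2.28-fold less (95% interval 1.99 to 2.60). For Mir25 the 3p arm exceeded the 5p arm by 439-fold and by 201-fold, which was 2.18-fold less (1.72 to 2.78). For Mir106b the excess of the 3p arm was 1.27-fold less in the iFIRKO-labelled library (1.10 to 1.46).

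Arm balance could be followed in 70 hairpins in which the mean count of each arm was at or above 100. In 40 of them (57.1%) the balance moved towards the rarer arm in the iFIRKO-labelled library, with a median log2 change of -0.06 (quartiles -0.36 and 0.13). Counted from the strongest move towards the rarer arm, Mir93 ranked 4, Mir25 ranked 6 and Mir106b ranked 20 of 70. With exchanged labels the same ranks would count moves towards the abundant arm. By the excess of the abundant arm in the control-labelled library, Mir25 ranked 2, Mir93 ranked 7 and Mir106b ranked 44. On the deposited scale the abundant arm was lower and the rarer arm higher in 14 of the 70 hairpins (20%), and Mir93 and Mir25 were among these. Both arms of Mir106b were lower, as in 19 of the 70. The interval of the change did not include 1 in 34 of the 70 hairpins, so a change beyond counting error was common.

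**Figure D5:**
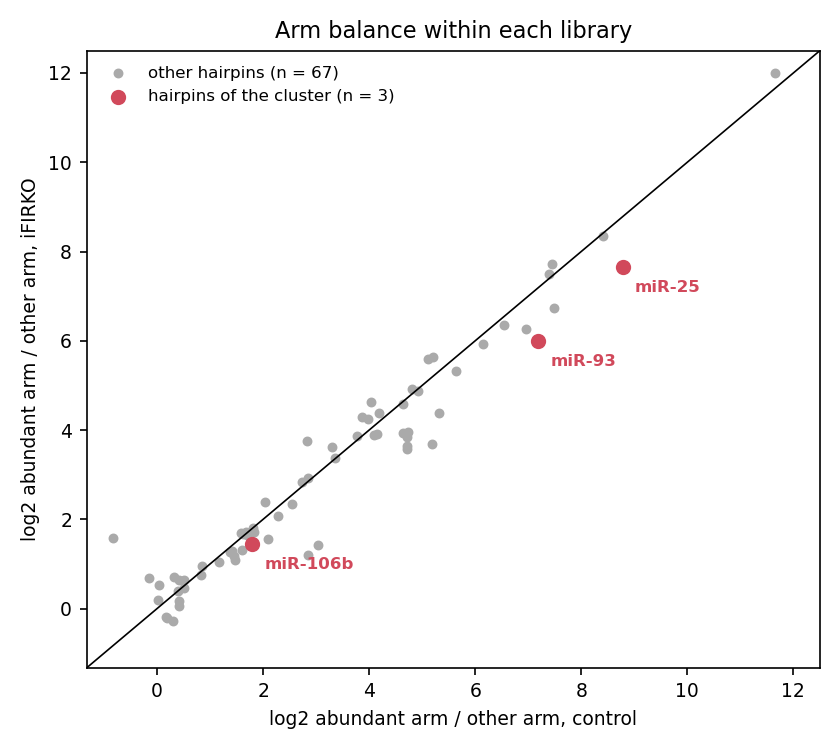
Each point is 1 of 70 hairpins, with the log2 ratio of its abundant arm to its other arm in the control-labelled library on the x axis and in the iFIRKO-labelled library on the y axis, and the line marks equal values. The red points of miR-93 and miR-25 lie below the line by 1.19 and 1.13, and that of miR-106b by 0.34.

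The seeds were then used to place the guides among the miRNAs that can pair with the same target sites. The sequences below are those of the listed relatives with counts of at least 100 in the control-labelled library, again with the seed in capitals.
mmu-miR-17-5p: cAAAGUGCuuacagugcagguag
mmu-miR-20a-5p: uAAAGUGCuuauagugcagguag
mmu-miR-20b-5p: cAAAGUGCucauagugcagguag
mmu-miR-106a-5p: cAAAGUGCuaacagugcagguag
mmu-miR-92a-3p: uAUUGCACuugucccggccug
mmu-miR-92b-3p: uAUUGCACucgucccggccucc
mmu-miR-32-5p: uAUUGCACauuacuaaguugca

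The seed AAAGUGC was found in 7 listed miRNAs, and the other 6 differed from miR-93-5p by 3 (miR-17-5p and miR-20b-5p) to 8 edits (miR-6383). How many mismatches the counting allowed is not given in the sources used here, so that some exchange of reads between these relatives was not tested. miR-93-5p held 90.1% of the counts of this family in the control-labelled library (95% Wilson interval 89.8 to 90.3) and 89.9% in the iFIRKO-labelled library (89.6 to 90.3), so its share differed by less than counting error. miR-106b-5p held 1.05% (0.981 to 1.13) and 1.24% (1.12 to 1.37), fewer counts than miR-20a-5p and miR-17-5p. The family as a whole had a ratio of 0.748 (95% interval 0.738 to 0.758).

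Within the family miR-20a-5p had 4035 and 1649 counts, giving a ratio of 0.699 (0.659 to 0.740). miR-17-5p had 1357 and 614 counts, giving a ratio of 0.773 (0.702 to 0.851). The intervals of miR-20b-5p (0.906, 0.788 to 1.04) and miR-106a-5p (0.874, 0.670 to 1.13) included 1. The abundant members of the family were thus lower in the iFIRKO-labelled library, as miR-93-5p was, with miR-20b-5p and miR-106a-5p not distinguishable from 1 at their depth. None of the 7 passed 1.5-fold on the deposited scale.

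The seed AUUGCAC was found in 6 listed miRNAs, and miR-25-3p was the closest to miR-92a-3p, from which it differed by 4 edits. miR-25-3p held 76.8% of the counts of this family in the control-labelled library (76.6 to 77.1) and 68.9% in the iFIRKO-labelled library (68.4 to 69.3). The share of miR-92a-3p was 22.1% (21.8 to 22.4) and 30.0% (29.5 to 30.5). Here the members moved apart, since miR-92a-3p had 17776 and 11116 counts, giving a ratio of 1.07 (95% interval 1.04 to 1.09) that falls below 1 when the ratios are scaled to miR-148a-3p, to the median of ratios or by TMM. miR-92b-3p had 433 and 163 counts, giving a ratio of 0.643 (0.534 to 0.772), and miR-32-5p 95.1 and 83.7 CPM, giving a ratio of 0.881 (0.734 to 1.05). The family as a whole had a ratio of 0.787 (0.777 to 0.796). Of its 6 members 3 were lower and 3 higher on the deposited scale. Past 1.5-fold were miR-92b-3p downwards and the rare miR-367-3p upwards (10 and 24 counts). Of all miRNAs, 3.03% and 66.3% passed it in these directions. The interval of miR-363-3p (1.15, 0.776 to 1.68) included 1.

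The clusters miR-17-92 on chromosome 14 and miR-106a-363 on chromosome X are paralogs of the Mcm7 cluster. Each lists 12 arms, of which miR-19b-3p and miR-92a-3p belong to both and cannot be assigned to either. The 12 arms of miR-17-92 summed to 8168 CPM in the control-labelled library and 7520 CPM in the iFIRKO-labelled library, a ratio of 0.921 (95% interval 0.903 to 0.938). Most of this sum was the shared miR-92a-3p, with 4656 and 4977 CPM and a ratio of 1.07. The next most abundant arms, miR-19b-3p and miR-20a-5p, had ratios of 0.676 and 0.699. The 6 arms of the Mcm7 cluster summed to 33646 and 24586 CPM, so in both libraries they exceeded the 12 arms of miR-17-92. Of the 12 arms of miR-17-92, 6 were lower, 3 passed 1.5-fold upwards and 0 passed it downwards, with a median log2 ratio of -0.03. Among those with a mean count of 100 or more, 0 passed it upwards and the median was -0.39. Over all 1847 miRNAs 11.9% were lower, 66.3% passed 1.5-fold upwards and 3.03% downwards, with a median of 0.88. That median is set largely by rare miRNAs. It was -0.07 at a mean count of 1000 or more and 0.53 from 100 to under 1000. The arms of miR-106a-363 had a median log2 ratio of 0.47, with 5 of 12 over 1.5-fold higher, and most of them had a mean count under 100. Among its arms with a mean count of 100 or more the median was -0.14, and 1 was over 1.5-fold higher. With TMM scaling 10 and 9 of the 12 arms were below 1.

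Serum holds miRNAs of many cells, so lists of cell type miRNAs were set beside the cluster. All 7 erythroid miRNAs, with miR-451a as the defining member, were lower in the iFIRKO-labelled library on the deposited scale. No other scaling could turn this, since none multiplied a ratio by more than 1.002. The sum of the 7 went from 47506 to 32240 CPM. The ratio of that sum was 0.679 (95% interval 0.673 to 0.685), beside 0.731 for the 6 arms. Most of the sum was miR-486b-5p, with 32447 and 23766 CPM and a ratio of 0.732. The median log2 ratio of the list was -0.86, beside -0.30 for the 6 arms. Over 1.5-fold lower were 4 of the 7, against 0 of the 6 arms and 3.03% of all miRNAs. miR-451a alone had 5536 and 2263 CPM, a ratio of 0.409. The study followed up 3 of the 7 (miR-451a, miR-144-3p and miR-486a-3p) after seeing these libraries, and the hairpins of miR-486a and miR-486b overlap on opposite strands, so the list was not chosen independently of these data. The doubt over the labels applies here above all, since the study describes miR-451a, miR-144-3p and miR-486a-3p as increased in iFIRKO mice. With exchanged labels all 7 erythroid miRNAs would be higher. The platelet and myeloid list had a summed ratio of 0.928 (0.922 to 0.933) with 3 of 4 lower (4 of 4 with TMM). Its members differed, with ratios of 0.799 for miR-223-3p, 0.986 for miR-223-5p, 0.710 for miR-126a-3p and 1.24 for miR-191-5p. The sum thus combines opposite directions. The leukocyte list, which includes miR-142a-3p, had a summed ratio of 0.924 (0.916 to 0.933) with 5 of 5 lower. Of these, miR-142a-5p (0.910 to 1.02) and miR-155-5p (0.781 to 1.01) had intervals that include 1. The hepatocyte list went the other way, from 120576 to 201930 CPM, mostly miR-122-5p, and 4 of 4 were higher except with TMM scaling, where 4 of 4 were below 1. The adipocyte list held 2011 and 2246 CPM, a ratio of 1.12 (1.08 to 1.16), but 3 of 5 were lower (5 of 5 with TMM). Most of its sum was miR-378a-3p, with 1533 and 1859 CPM and a ratio of 1.21. The intervals of miR-455-3p (0.892, 0.740 to 1.07) and miR-193b-3p (1.46, 0.798 to 2.64) included 1. As a background to these direction counts, 11.9% of all 1847 miRNAs were lower on the deposited scale. The share lower was 59.3% at a mean count of 1000 or more and 21.9% from 100 to under 1000. A higher ratio, as on the hepatocyte list, was thus the common direction over all miRNAs, though not in the most abundant class. A lower ratio, as on the leukocyte list, was common in that class. No marker of any list was at the floor. Fewer vesicles of a cell type and less of a miRNA in each vesicle cannot be told apart in such libraries. The part of blood cells or other sources in the ratios of the cluster was not tested.

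Of the miRNAs with a mean count of 1000 or more outside the cluster, those with the log2 ratio nearest to that of the 3 summed guides (-0.46) were miR-145a-5p, miR-486b-5p, miR-16-5p, miR-133b-3p and miR-30b-5p. The likeness rests on a single ratio of 2 libraries, by which the 5 were chosen, so it is no separate result. The 5 differed from the guides by 0.003 to 0.013 on the log2 scale. The ratio of the summed guides was 0.727 (95% interval 0.720 to 0.735). It was 0.733 (0.730 to 0.736) for miR-16-5p, the most abundant miRNA of both libraries, and 0.732 (0.725 to 0.740) for miR-486b-5p. For miR-145a-5p it was 0.726 (0.676 to 0.780), for miR-133b-3p 0.721 (0.655 to 0.794) and for miR-30b-5p 0.721 (0.662 to 0.784).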

How the data were processed

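Small RNA libraries (QIAseq miRNA kit, NextSeq500) were made from serum EV RNA, 1 per group, and analysed by the authors on the GeneGlobe Data Analysis Center. The build was mm10 per the labels. The aligner, the miRNA annotation and the use of molecular identifiers are not given in the sources used here. The ligation and amplification steps of such kits can favour some miRNAs, so levels of different arms are those of the libraries.

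The deposited signal is a count divided by 1 constant per library: 100% of the values were whole multiples within 0.01 counts. Counts and depths (3817902 and 2233498) were recovered from it, and values shown at 1 count stand for fewer than 10. With 1 library per group no count model could be fitted and no p-value is given. The 95% interval of a ratio came from the exact (Clopper-Pearson) interval of the share of counts, that of a change between arms from Woolf's formula, and shares have Wilson intervals. They cover counting error only.

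Alternatives were filters at mean counts of 10 and 100, a pseudocount of 1 CPM, a 2-fold threshold, the floor set to 10 counts, and scaling to equal totals, miR-148a-3p, the median of ratios or TMM (edgeR 4.0.16, R 4.3.3). The median of ratios was taken over miRNAs with a mean count of 100 or more. That scaling left a median log2 ratio of 0.62 over all miRNAs. Other steps used Python 3.11.15 and scipy 1.17.1. The exact interval of a ratio was tried on simulated Poisson counts, the model it assumes, so this does not cover variation between libraries. The Woolf and Wilson intervals were not tried in this way. Seeds were matched for 1596 of 1858 listed names. The named miRNAs were the 6 members, the arms of the paralogous clusters, miRNAs sharing a guide seed, miR-148a-3p, the 5 nearest ratios at a mean count at or above 1000, and the cell type lists. The members and lists were chosen with earlier results of these data known.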

Additional observations from a re-analysis of the deposited data

How the results depend on the processing

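No paired analysis was possible because there was only 1 library in each group, and no library could be left out. A pseudocount of 1 CPM, setting the floor to 10 counts and equal totals left the ratios of the 6 arms within their counting error. The direction was the same under each scaling for 4 arms and turned with TMM for miR-93-3p and miR-25-5p. A scaling applies 1 factor to every ratio, and no factor exceeded 1.002, so the 4 lower arms could not turn. With miR-148a-3p, the median of ratios and TMM, in that order, the ratio was 0.756, 0.732 and 0.487 for miR-106b-5p, 0.597, 0.578 and 0.385 for miR-106b-3p, 0.642, 0.622 and 0.413 for miR-93-5p, 0.605, 0.586 and 0.390 for miR-25-3p, 1.46, 1.41 and 0.941 for miR-93-3p, and 0.625, 0.605 and 0.402 for the summed guides. The ratio of miR-25-5p was 0.852 with TMM and stayed within its counting error with the other scalings. The arms past 1.5-fold were 0 higher under these 3 scalings and at 2-fold, and 3, 3 and 4 lower. Of all miRNAs, 102, 113 and 360 were lower under these scalings and 388 were higher with TMM. At 2-fold 794 were higher. A mean count at or above 10 left 24 lower, and one of at least 100 left 145 higher and 18 lower. With the floor at 10 counts 22 were lower, and without entries at the floor, added after seeing the data, 21 were lower. The median log2 ratio of miR-17-92 was -0.25, -0.30 and -0.89 under the 3 scalings and -0.39 at a mean count at or above 100, that of the seed AUUGCAC -0.26, -0.31, -0.90 and -0.34, and with TMM that of miR-106a-363 was -0.39 and that of the seed AAAGUGC -1.05. For miR-106a-363 the median turned from 0.47 to -0.14 at a mean count at or above 100. Ratios between arms of 1 library do not change with scaling. Depth limits miR-25-5p most, with 141 and 127 counts.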

Other observations

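The paralogous clusters also hold the miR-18 and miR-19 families, which the Mcm7 cluster lacks, and these were looked at after the data were seen. miR-19b-3p had 5892 and 2330 counts, giving a ratio of 0.676 (95% interval 0.644 to 0.709), and miR-19a-3p had 1017 and 453 counts, giving a ratio of 0.761 (0.680 to 0.851). Both miR-19 guides were lower in the iFIRKO-labelled library on the deposited scale, and none of the scalings tried could turn this. The miR-18 guides differed in direction on the deposited scale, since miR-18a-5p had a ratio of 0.745 (0.642 to 0.863) and miR-18b-5p a ratio of 1.55 (1.23 to 1.95), which fell below 1 with TMM scaling. miR-18b-5p was the rarer, with 159 and 144 counts against 599 and 261.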
